A study of Mus musculus with 12 samples.

Results

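The genes described here encode the machinery of programmed cell death that runs through death receptors, the necrosome and the inflammasome, and they were chosen by gene symbol: *Mlkl*, *Ripk1*, *Ripk3*, *Casp8*, *Fadd*, *Cflar*, *Casp1*, *Gsdmd*, and *Cyld*. They are 9 of the 32051 genes in the RNA-seq of mouse Th9 cells, a CD4+ T cell subset named for IL-9, and the set was in part selected on measured values, the lower FPKM of *Mlkl* with fatostatin. Naive CD4+ T cells from C57BL/6J spleens were cultured for 4 days with antibodies to CD3 and CD28, IL-4 at 10 ng/mL and TGF-β at 1 ng/mL, with IL-12 and IFN-γ neutralized by antibodies during the initial culture. The cells of all 4 groups shared these conditions and received DMSO (the vehicle), EpA at 10 μM, fatostatin at 5 μM, or EpA and fatostatin together at the same doses, with 3 replicates in each group. EpA, endomelipeptide A, is a cyclic peptide from an endophytic fungus, and fatostatin is an inhibitor of SREBP, the transcription factors of lipid synthesis genes. The labels do not say whether replicates came from separate mice or cultures, so the p-values measure only the spread between these libraries.

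Death receptors of the TNF receptor family recruit the adaptor FADD, which brings caspase-8 to the receptor complex, where caspase-8 starts apoptosis. The protein cFLIP, encoded by *Cflar*, pairs with caspase-8 and restrains it. When caspase-8 is inactive, the kinases RIPK1 and RIPK3 can form the necrosome, in which RIPK3 phosphorylates MLKL, and MLKL then breaches the plasma membrane (necroptosis). CYLD removes ubiquitin chains from RIPK1 and favors its release into these complexes. In pyroptosis, caspase-1, activated on inflammasomes, cleaves gasdermin D (*Gsdmd*), which forms pores in the membrane. In T cells, caspase-8 and FADD are known both for death after Fas engagement and for survival of dividing cells, in which they hold necroptosis back.

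Values are FPKM, reads on a gene scaled by its exon length and by the reads of the library. Levels are compared between genes on this scale, which depends on the length used. That length joins all annotated exons of a gene, 12669 bases for *Cflar* and 2893 for *Casp8*. The length of the transcripts present in these cells was not measured. Between 36607303 and 44375791 reads per library lay on genes, and 1 read on 1 kb of exon was worth 0.0225 to 0.0273 FPKM. All 9 genes were among the 13733 that averaged 0.1 FPKM or more over the 12 libraries and were tested with limma on log2(FPKM + 0.1), and the smallest read number of any of them in a library was 323, for *Casp1*. The summed level of 6 T cell markers was 574 to 585 FPKM with DMSO, 503 to 508 with EpA, 557 to 574 with fatostatin and 481 to 485 with both compounds, so it was lower in every EpA library than in every library without EpA. *Cd4* alone went the other way, at 78.1 to 78.4 FPKM with DMSO, 86.2 to 87.1 with EpA, 82.8 to 85.6 with fatostatin and 89.6 to 92.2 with both compounds. The 6 macrophage and monocyte markers, whose cells are rich in inflammasome genes, summed to 0.0628 to 0.153 FPKM with DMSO, 0.213 to 0.352 with EpA, 0.235 to 0.34 with fatostatin and 0.396 to 0.593 with both compounds, and none reached a mean of 1 FPKM. Neutrophil, dendritic cell and NK cell markers summed to at most 1.13, 0.37 and 0.105 FPKM, and the dendritic cell marker *Siglech* was listed at 0 in every library. The CD8 T cell markers summed to 6.98 to 10.2 FPKM, mostly from *Cd8b1*, and *Cd8a* read 1.6 to 1.93 FPKM with DMSO, 0.766 to 0.829 with EpA, 1.44 to 1.6 with fatostatin and 0.43 to 0.577 with both compounds, lower in every EpA library than in every library without EpA. Erythroid and platelet markers, mostly *Pf4*, summed to 1.22 to 1.94 FPKM with DMSO, 2.51 to 3.14 with EpA, 1.73 to 2.27 with fatostatin and 2.83 to 3.76 with both compounds, so they were higher in every EpA library than in every library without EpA. Mast cell and basophil markers summed to 0.616 to 1.76 FPKM. The B cell marker *Cd79b* read 5.08 to 6.91 FPKM with DMSO, 4.66 to 5.43 with EpA, 6.38 to 7.43 with fatostatin and 5.06 to 5.79 with both compounds. The part of these cells in the results was not tested.

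The promoters of *Mlkl* and *Casp1* are shown because these genes had the lowest log2 fold changes of the 9 with fatostatin. Each sequence gives the 250 bases before the RefSeq start on GRCm38.p6, 5′ to 3′ on the strand of the gene, at chr8:111338206-111338455 (minus strand) for *Mlkl* and chr9:5298267-5298516 (plus strand) for *Casp1*.

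Mlkl promoter: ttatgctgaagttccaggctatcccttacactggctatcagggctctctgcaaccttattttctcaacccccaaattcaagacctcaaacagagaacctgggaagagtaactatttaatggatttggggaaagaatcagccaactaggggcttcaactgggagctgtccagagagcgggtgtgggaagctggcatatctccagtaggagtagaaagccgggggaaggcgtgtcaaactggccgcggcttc

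Casp1 promoter: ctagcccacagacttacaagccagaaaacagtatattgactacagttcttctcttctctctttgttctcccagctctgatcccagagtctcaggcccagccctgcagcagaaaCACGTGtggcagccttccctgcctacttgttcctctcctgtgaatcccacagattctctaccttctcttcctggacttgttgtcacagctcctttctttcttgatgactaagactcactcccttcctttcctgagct

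The capitals mark the E-box CACGTG, a site read by bHLH factors, which lies 137 to 132 bases before the *Casp1* start. Among 32851 promoter windows of RefSeq, 6.02% held this motif, and among the members *Ripk3* held it too, 61 to 56 bases before its start. *Mlkl* held none of the 5 motifs searched on both strands, which were also the interferon-stimulated response element core GAAANNGAA (7.13% of windows), the gamma-activated sequence TTCNNNGAA (7.02%), the sterol regulatory element TCACNCCAC (1.05%) and the xenobiotic response element TNGCGTG (4.1%). The gamma-activated sequence occurred at 2 places before the second RefSeq start of *Ripk1*, and the interferon-stimulated response element core, on the other strand, before that of *Cyld*. The motifs were picked after the values were known, a match describes letters only, and 8 of the 9 genes had a promoter entry, *Gsdmd* being the gene without.

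With vehicle alone, the initiator and the necroptosis kinase led the set in FPKM. In reads, *Cyld* led with 5672 to 6725 per DMSO library, and *Cflar* had 3933 to 4706 against 3539 to 4281 for *Casp8*. In the DMSO libraries *Casp8* averaged 33.5 ± 0.481 FPKM and *Ripk3* 29.4 ± 1.54 FPKM (SD, n = 3, as for all means here). *Mlkl* at 14.4 ± 0.176 and *Cyld* at 12.5 ± 0.378 FPKM followed. *Ripk1* (8.95 ± 0.488), *Cflar* (8.7 ± 0.319), *Casp1* (7.44 ± 0.473) and *Fadd* (7.03 ± 0.258) lay close together. *Gsdmd* was lowest, at 4.51 ± 0.369 FPKM. Across the 4 groups the highest group mean exceeded the lowest by 2.9-fold for *Mlkl*, 1.43-fold for *Casp1* and 1.36-fold for *Cflar*, and by at most 1.19-fold for the other 6.

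**Figure D1:**
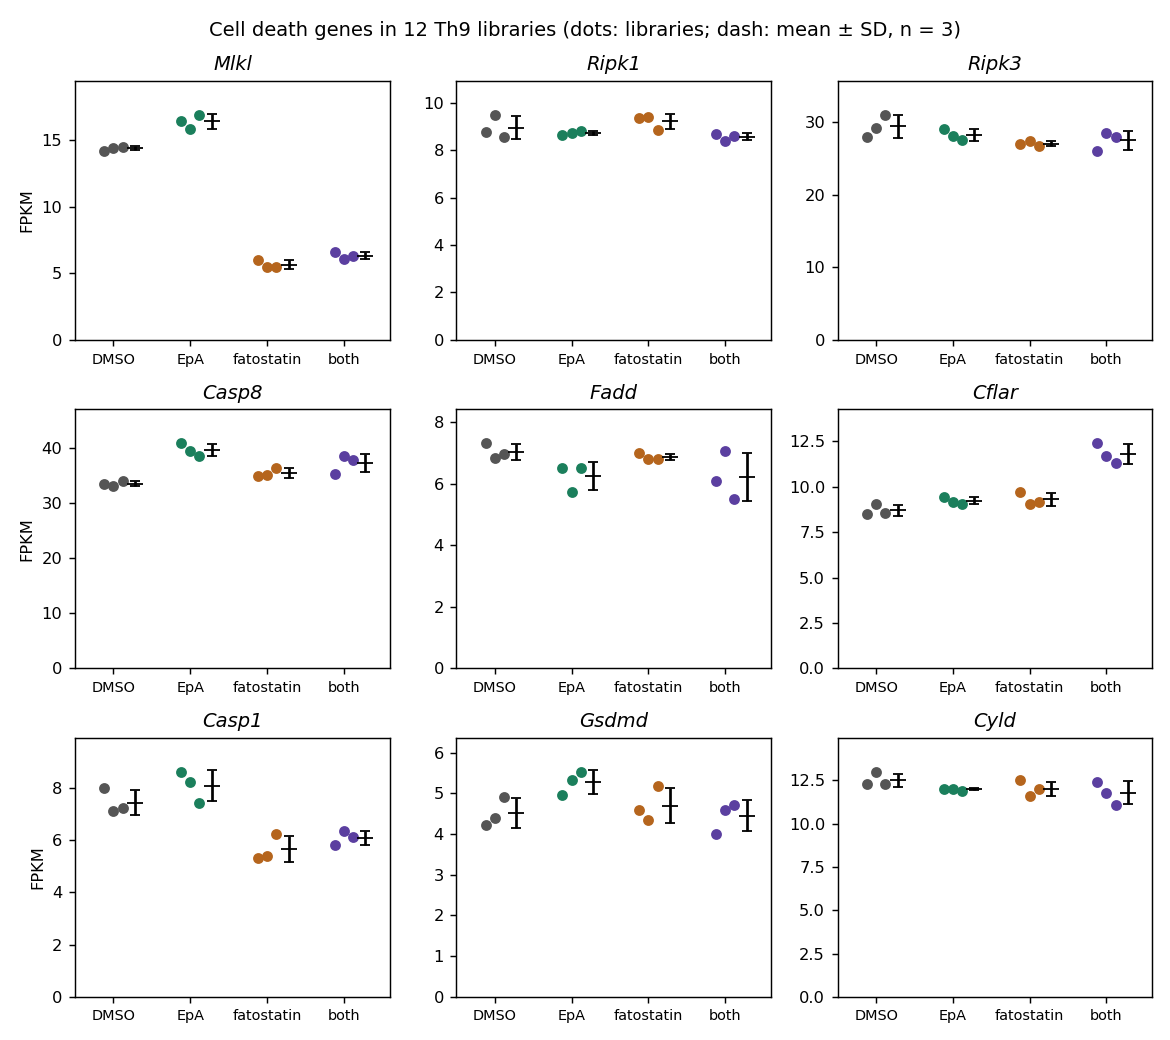
FPKM of the 9 genes in each library (dots) by group on axes that start at 0, with the group mean and SD (n = 3) beside the dots; "both" is EpA and fatostatin together. *Mlkl* lies between 5.46 and 6.57 FPKM in the 6 libraries with fatostatin and between 14.2 and 16.9 in the 6 without, while *Cyld* stays between 11.1 and 13.0 throughout.

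*Mlkl* (ENSMUSG00000012519, chromosome 8 of GRCm38 from 111311797 to 111338177, minus strand) encodes the executioner of necroptosis. It stood at 14.2, 14.4 and 14.5 FPKM in the DMSO libraries, 16.4, 15.8 and 16.9 with EpA, 6.02, 5.46 and 5.49 with fatostatin, and 6.57, 6.05 and 6.29 with both compounds. The libraries formed 4 bands without overlap, the EpA band highest and the fatostatin band lowest. The mean with fatostatin was 2.55-fold lower than with DMSO, a log2 fold change of -1.33 (SE 0.0441, 95% interval -1.43 to -1.24), and with both compounds it was 2.6-fold lower than with EpA alone (-1.36, SE 0.0441, interval -1.46 to -1.27). Since the set was chosen with this difference in view, it is a description and carries no test. Its rank was 48th from the lowest of 13733 genes with fatostatin against DMSO and 41st with both compounds against EpA, and 0.335% and 0.291% of genes had groups that did not overlap and a mean at least 2-fold lower in these comparisons. In bulk RNA, fewer cells of a kind that carry a transcript and less of it per cell cannot be told apart.

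EpA moved *Mlkl* the other way and by far less. *Mlkl* rose by 0.18 on the log2 scale with EpA against DMSO (SE 0.0441, 1.14-fold, limma adjusted p = 0.00904), higher in 3 of 3 libraries than any DMSO library, and its adjusted p stayed between 0.00371 and 0.0401 over 16 alternatives. With fatostatin in both groups the log2 change was 0.15 (SE 0.0441, limma adjusted p = 0.0209), from the highest fatostatin library at 6.02 to the lowest library with both at 6.05 FPKM. That second call did not hold without fatostatin replicate 2 (limma adjusted p = 0.0775) or 3 (0.0743), or without replicate 1 (0.0754) or 3 (0.0507) of both compounds. The EpA effect with fatostatin minus that without it was -0.03 (SE 0.0624, interval -0.17 to 0.11), given as a description. The comparison of EpA with DMSO shares the DMSO libraries with the contrast behind the choice of genes, and that of both compounds with fatostatin shares the fatostatin libraries with it.

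The kinases upstream of MLKL had even levels. *Ripk3* (ENSMUSG00000022221, chromosome 14 from 55784995 to 55788865, minus strand), which phosphorylates MLKL, read 27.9, 29.2 and 31.0 FPKM with DMSO, 29.1, 28.1 and 27.5 with EpA, 27.0, 27.4 and 26.7 with fatostatin, and 26.0, 28.5 and 27.9 with both. The fatostatin libraries lay below all DMSO libraries, a log2 difference of -0.12 (SE 0.0419) that is described only, and groups next to each other in the order of their means overlapped. No EpA comparison passed for *Ripk3* (limma adjusted p = 0.373 against DMSO, 95% interval -0.15 to 0.04, and 0.736 with fatostatin in both groups, interval -0.07 to 0.11). The ratio of *Ripk3* to *Mlkl* FPKM was 2.04 ± 0.0839 with DMSO, 1.73 ± 0.0855 with EpA, 4.79 ± 0.27 with fatostatin and 4.37 ± 0.386 with both compounds (SD, n = 3). The members of the necrosome pair therefore stood in different proportion with fatostatin, which follows from the *Mlkl* values above and was not tested.

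*Ripk1* (ENSMUSG00000021408, chromosome 13 from 34002363 to 34037147, plus strand), the kinase that links death receptors to both caspase-8 and RIPK3, ranged over the 12 libraries only from 8.39 to 9.5 FPKM. With fatostatin it measured 9.37, 9.42 and 8.86 FPKM and with both compounds 8.69, 8.39 and 8.62, so the groups did not overlap. The difference of -0.10 (SE 0.0401, limma adjusted p = 0.0743) did not pass, although it did without fatostatin replicate 3 (limma adjusted p = 0.0475). Exons of *Ripk1* share 241 of their 8344 bases with *Serpinb6a* on the other strand and 511 with the pseudogene *Gm17084*, and the strand setting of the counting is not given in the sources used here, so a part of its reads is uncertain. *Cyld* (ENSMUSG00000036712, chromosome 8 from 88697028 to 88751945, plus strand), which strips ubiquitin from RIPK1, was the most even gene of the set, with group means from 11.8 to 12.5 FPKM. Its log2 differences in the 3 comparisons tested were -0.06 for EpA against DMSO, -0.03 for both compounds against EpA and -0.03 for both compounds against fatostatin, and none passed (limma adjusted p = 0.321, 0.723 and 0.615). Their 95% intervals lay within -0.155 and 0.065.

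Of the death receptor complex, the initiator caspase rose with EpA and its restrainer rose where both compounds were present. *Casp8* (ENSMUSG00000026029, chromosome 1 from 58795374 to 58847503, plus strand) stood at 33.4, 33.1 and 34.0 FPKM with DMSO, 40.8, 39.4 and 38.5 with EpA, 34.8, 35.0 and 36.4 with fatostatin, and 35.3, 38.5 and 37.7 with both. The EpA libraries were above every DMSO library. *Casp8* rose by 0.24 on the log2 scale with EpA (SE 0.0333, 1.18-fold, limma adjusted p = 0.000302), and this call held in all 16 alternatives (adjusted p from 8.95e-06 to 0.00196). With fatostatin in both groups the change was 0.07 (SE 0.0333, limma adjusted p = 0.149) and the groups overlapped. Without replicate 1 of both compounds it was 0.10 and passed (limma adjusted p = 0.0245). The difference between the EpA effects was -0.17 (SE 0.0471, 95% interval -0.27 to -0.07), which did not pass after adjustment over 13733 genes (limma adjusted p = 0.365). Both compounds against EpA alone gave -0.09 (SE 0.0333, limma adjusted p = 0.0932).

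*Cflar* (ENSMUSG00000026031, chromosome 1 from 58711508 to 58758884, plus strand) lies on the same chromosome just ahead of *Casp8*, and its protein is a caspase-8 homolog without protease activity. It measured 8.48, 9.06 and 8.54 FPKM with DMSO, 9.44, 9.17 and 9.08 with EpA, 9.74, 9.03 and 9.15 with fatostatin, and 12.4, 11.7 and 11.3 with both compounds. The 3 libraries with both compounds stood apart above the other 9, whose highest value was 9.74. *Cflar* rose by 0.35 on the log2 scale against EpA (SE 0.0426, 1.28-fold, limma adjusted p = 0.000204) and by 0.34 against fatostatin (SE 0.0426, 1.27-fold, limma adjusted p = 0.000129). Both calls held in all 16 alternatives each, with adjusted p of at most 0.00337 and 0.00302. EpA alone gave 0.09 against DMSO (SE 0.0426, interval -0.01 to 0.18, limma adjusted p = 0.168). The EpA effect was larger by 0.25 in the presence of fatostatin (SE 0.0602, 95% interval 0.12 to 0.39), which did not pass after adjustment (limma adjusted p = 0.323) but did when limma's voom was run on the recovered reads (adjusted p = 0.0375).

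The ratio of *Casp8* to *Cflar* FPKM was 3.94, 3.65 and 3.98 with DMSO, 4.32, 4.29 and 4.24 with EpA, 3.58, 3.88 and 3.98 with fatostatin, and 2.86, 3.28 and 3.34 with both. The ratio was thus highest with EpA alone and lowest with both compounds, and neither of these groups overlapped with any other. It was not tested, and its size depends on the exon lengths used. *Fadd* (ENSMUSG00000031077, chromosome 7 from 144577318 to 144582463, minus strand), the adaptor between receptor and caspase-8, read 7.31, 6.82 and 6.95 FPKM with DMSO and 6.5, 5.73 and 6.5 with EpA. The groups did not overlap, but the log2 difference of -0.17 (SE 0.0784, 95% interval -0.34 to 0.00, limma adjusted p = 0.139) did not pass. With fatostatin *Fadd* read 6.98, 6.8 and 6.81 FPKM, and with both compounds 6.07, 7.07 and 5.51, the widest spread of any group for this gene. Without replicate 2 of both compounds, the library at 7.07, the difference from fatostatin went from -0.15 to -0.24 and passed (limma adjusted p = 0.019, against 0.189 with it). Exons of *Fadd* share 239 of 3903 bases with the antisense gene *Faddos*, whose reads cannot be told apart without strand.

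Of the pyroptosis pair, *Casp1* was lower in all libraries with fatostatin. *Casp1* (ENSMUSG00000025888, chromosome 9 from 5298517 to 5307265, plus strand) read 7.98, 7.11 and 7.22 FPKM with DMSO, 8.62, 8.21 and 7.44 with EpA, 5.3, 5.41 and 6.23 with fatostatin, and 5.8, 6.34 and 6.11 with both compounds. The 6 libraries with fatostatin did not reach the lowest of the 6 without it, whereas within each set the EpA and vehicle libraries overlapped. *Casp1* fell by 0.40 on the log2 scale with both compounds against EpA (SE 0.073, 1.33-fold lower, limma adjusted p = 0.00312), and this held in all 16 alternatives (adjusted p from 0.00149 to 0.0155). Against DMSO, fatostatin gave -0.39 (SE 0.073), described only. EpA gave 0.12 against DMSO (SE 0.073, interval -0.04 to 0.28, limma adjusted p = 0.269) and 0.11 with fatostatin in both groups (interval -0.05 to 0.27, limma adjusted p = 0.305). The macrophage and monocyte markers given above overlapped between the EpA and the fatostatin libraries and were highest with both compounds, and their part in the *Casp1* values was not tested.

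*Gsdmd* (ENSMUSG00000022575, chromosome 15 from 75862327 to 75867408, plus strand) read 4.22, 4.39 and 4.92 FPKM with DMSO, 4.95, 5.32 and 5.53 with EpA, 4.58, 4.34 and 5.19 with fatostatin, and 4.01, 4.6 and 4.72 with both. The EpA libraries were the highest group and stood just above the DMSO libraries. EpA against DMSO gave 0.22 (SE 0.0847, 95% interval 0.04 to 0.41, limma adjusted p = 0.0764) and both compounds against EpA gave -0.24 (SE 0.0847, interval -0.43 to -0.06, limma adjusted p = 0.0777), neither past the threshold. Without DMSO replicate 3, the highest DMSO library, the former was 0.29 and passed (limma adjusted p = 0.0429). With the replicate number as a block both comparisons passed (limma adjusted p = 0.0148 and 0.0161). The difference between the EpA effects was -0.30 (SE 0.12, 95% interval -0.56 to -0.04, limma adjusted p = 0.569). The ratio of *Casp1* to *Gsdmd* FPKM went from 1.66 ± 0.215 with DMSO and 1.54 ± 0.198 with EpA to 1.2 ± 0.0443 with fatostatin and 1.37 ± 0.0767 with both compounds, without a test.

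Counted over the set, 2 of 9 genes passed higher and 0 lower with EpA against DMSO (*Casp8* and *Mlkl*), where 27.4% of all tested genes passed, 14.3% higher and 13.1% lower. With both compounds against fatostatin 2 of 9 passed, both higher (*Cflar* and *Mlkl*), against 29.5% of all genes, 16.2% higher and 13.3% lower. The *Mlkl* call there was lost in 6 of 16 alternatives, and its fatostatin libraries are also those of the contrast behind the choice. With both compounds against EpA, 1 of the 8 genes other than *Mlkl* rose (*Cflar*) and 1 fell (*Casp1*), against 16.0% of all genes, 9.22% higher and 6.79% lower. These shares lie near those of all genes. Among genes that averaged 1 FPKM or more, 34.9%, 37.7% and 21.4% passed in these comparisons, and the counts of the set stayed the same. No tested change among them reached 1.5-fold, a size with an adjusted p below 0.05 that 3.38%, 3.75% and 1.99% of all genes had in these comparisons. For the difference between the EpA effects, limma passed 0 of the 8 genes, and 0.0437% of all genes passed. At an unadjusted p below 0.05 were 3 of the 8 (*Casp8*, *Cflar* and *Gsdmd*), where 7.89% of all genes were. With voom 1 passed (*Cflar*), against 0.146% of all genes.

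Groups that did not overlap were more frequent than calls. With EpA against DMSO 4 genes lay wholly higher (*Mlkl*, *Casp8*, *Cflar* and *Gsdmd*) and 2 wholly lower (*Fadd* and *Cyld*), where 42.4% of all genes did not overlap, 21.7% higher and 20.8% lower. With both compounds against fatostatin 2 lay higher (*Mlkl* and *Cflar*) and 1 lower (*Ripk1*), where 41.4% of all genes did not overlap, 22.5% higher and 19.0% lower. With both compounds against EpA 1 lay higher (*Cflar*) and 4 lower (*Mlkl*, *Casp8*, *Casp1* and *Gsdmd*), against 33.3%, 18.9% and 14.4%. *Mlkl* is in that count although its fall with fatostatin was behind the choice of genes. With fatostatin against DMSO, the contrast behind the choice, 1 lay higher (*Casp8*) and 3 lower (*Mlkl*, *Ripk3* and *Casp1*), where 31.3% of all genes did not overlap, 16.5% higher and 14.8% lower. The median log2 change of the 9 genes was 0.09, 0.02, -0.04 and -0.03 in these 4 comparisons, in the order given, and that of all tested genes 0.002, 0.012, 0.015 and 0.005.

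**Figure D2:**
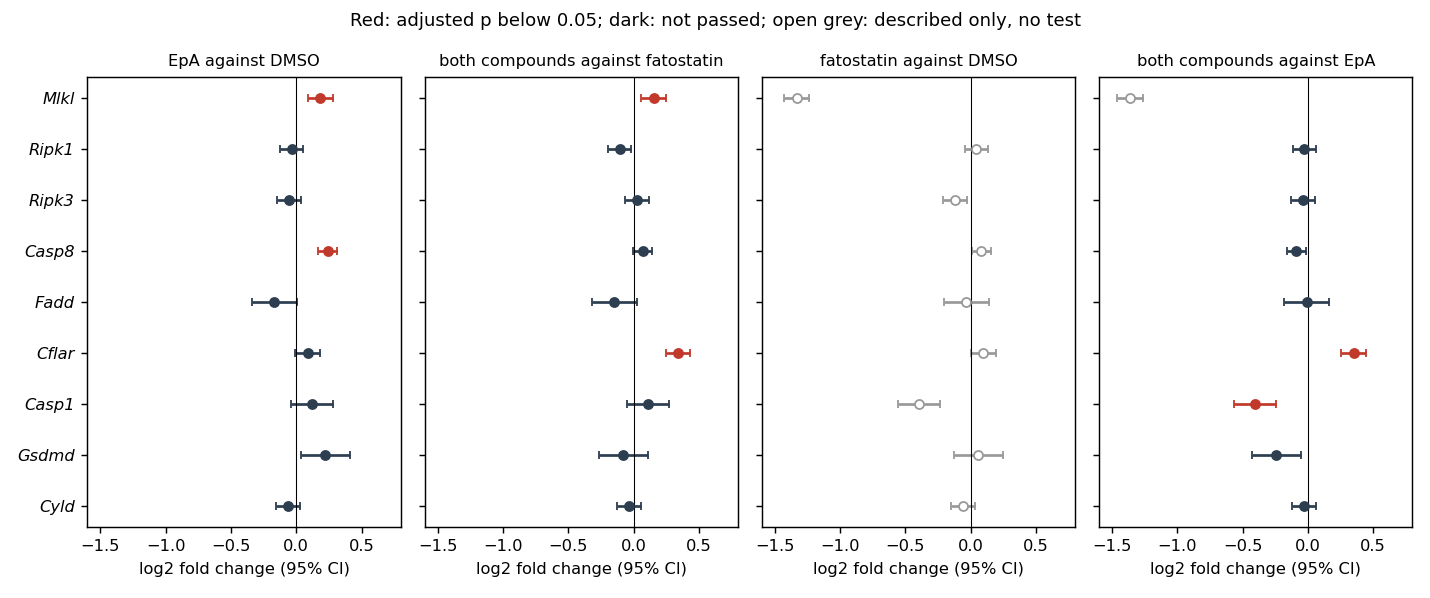
Log2 fold changes of the 9 genes with 95% intervals from limma in the 4 comparisons between groups (red: adjusted p below 0.05; dark: did not pass; open grey: described only, because the choice of genes used the contrast). *Mlkl* lies at -1.33 and -1.36 in the fatostatin comparisons, and the red points are *Mlkl* and *Casp8*, then *Mlkl* and *Cflar*, in the EpA comparisons and *Cflar* and *Casp1* in the last panel.

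The genes whose pattern came closest to that of *Mlkl* were found by the root mean square difference of log2 values centered on each gene's mean over the 12 libraries, among 10297 other genes that averaged 1 FPKM or more. The 5 closest were *Neurl3* (a difference of 0.119 on the log2 scale), *Nqo1* (0.13), *Cpox* (0.146), *Mpp2* (0.147) and *Cldnd1* (0.167). *Neurl3*, a ubiquitin ligase gene, averaged 29.2 FPKM with DMSO, 29.7 with EpA, 12.1 with fatostatin and 13.6 with both. *Nqo1*, which encodes a quinone reductase, averaged 3.76, 3.98, 1.52 and 1.72 FPKM in the same order. *Cpox*, an enzyme gene of heme synthesis, averaged 41.7, 47.0, 16.7 and 23.0 FPKM. In each of the 5 genes, as in *Mlkl*, no library with fatostatin reached a library without it. Likeness was the criterion of choice, so these values are a description, and the 12 libraries share their 4 treatments.

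**Figure D3:**
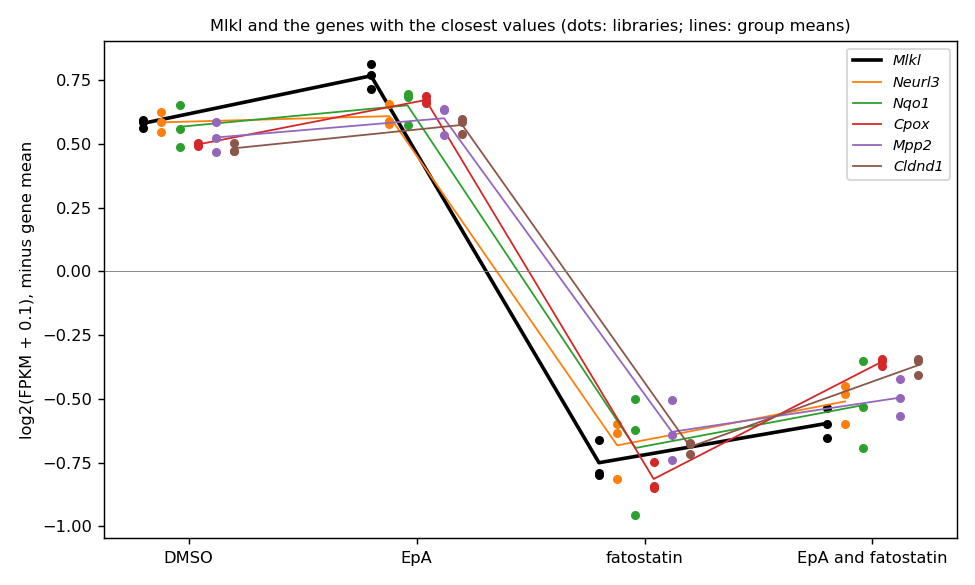
Log2(FPKM + 0.1) minus the mean of each gene, in each of the 12 libraries (dots) with lines through the group means, for *Mlkl* (black) and the 5 genes with the closest values. All 6 genes lie above 0 in the DMSO and EpA libraries and below 0 in the fatostatin libraries and those with both compounds, and *Cpox* and *Cldnd1* rise more than *Mlkl* from fatostatin to both compounds.

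The other genes of these pathways were taken as 107 genes in 9 lists, of which 96 were tested. With EpA against DMSO 20 passed higher and 19 lower, and with both compounds against fatostatin 22 higher and 21 lower, which is 40.6% and 44.8% of the list against 27.4% and 29.5% of all genes. With fatostatin against DMSO 18 passed higher and 4 lower, 22.9% against 14.0% of all genes (7.69% higher and 6.31% lower), and with both compounds against EpA 22 higher and 9 lower, 32.3% against 16.0%. All genes include many of low level. Among genes that averaged 1 FPKM or more, 36, 40, 22 and 31 of 83 list genes passed, in the order given. The share of all such genes was 34.9%, 37.7%, 18.8% and 21.4%. The median log2 change of the list was 0.00, 0.01, 0.02 and 0.03 in these comparisons. The lists were written with earlier results of these data known, and no test of a list was made.

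All 5 tested death ligands passed with both compounds against fatostatin, 4 higher and 1 lower, where 29.5% of all tested genes passed. With EpA against DMSO 2 of the 5 passed higher and 1 lower (27.4% of all genes), with fatostatin against DMSO 1 passed higher (14.0%) and with both compounds against EpA 2 passed higher (16.0%). *Lta*, which encodes lymphotoxin alpha, was 16.4, 18.3 and 18.3 FPKM with fatostatin and 50.6, 55.3 and 56.0 with both compounds, a rise of 1.61 on the log2 scale (SE 0.0481, limma adjusted p = 2.7e-09). *Tnf* rose by 0.59 (SE 0.0963, limma adjusted p = 0.000834). Both genes also rose with EpA against DMSO, *Lta* by 1.36 (SE 0.0481, limma adjusted p = 9.03e-09) and *Tnf* by 0.49 (SE 0.0963, limma adjusted p = 0.00281). *Tnfsf10*, the gene of the death ligand TRAIL, went the other way: it was 11.3, 10.8 and 10.4 FPKM with fatostatin and 6.61, 6.84 and 6.58 with both (-0.69, SE 0.0439, limma adjusted p = 7.36e-07), and with EpA against DMSO it fell by 0.70 (SE 0.0439, limma adjusted p = 7.7e-07).

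Receptor genes were split. *Fas*, the receptor of Fas ligand, read 13.8, 13.1 and 12.8 FPKM with DMSO, 10.4, 9.82 and 10.4 with EpA, 18.3, 20.6 and 19.6 with fatostatin, and 14.4, 17.0 and 17.4 with both, so fatostatin libraries were highest and EpA libraries lowest. *Fas* rose by 0.56 with fatostatin against DMSO (SE 0.0675, limma adjusted p = 0.00021) and by 0.66 with both compounds against EpA (SE 0.0675, limma adjusted p = 5.35e-05). *Tnfrsf10b*, the TRAIL receptor, was higher with either compound: it averaged 3.42 ± 0.265 FPKM with DMSO, 4.61 ± 0.255 with EpA, 6.62 ± 0.246 with fatostatin and 8.28 ± 0.395 with both (SD, n = 3), and its 4 groups did not overlap. Its log2 change was 0.93 with fatostatin (SE 0.0619, limma adjusted p = 1.89e-06). *Tnfrsf21*, death receptor 6, rose with EpA by 0.61 (SE 0.147, limma adjusted p = 0.00964) at a level of 0.315 to 0.534 FPKM, and this value ran from 0.22 to 0.74 over 15 alternatives, the lowest with a pseudocount of 1. With both compounds against fatostatin all 7 receptors passed, 4 higher and 3 lower, where 29.5% of all tested genes passed. With EpA against DMSO 3 of the 7 passed higher and 3 lower (27.4% of all genes), with fatostatin against DMSO 2 passed higher (14.0%), and with both compounds against EpA 2 passed higher and 1 lower (16.0%).

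Downstream, the adaptors and ubiquitin ligases had 2 passes among 9 genes with EpA against DMSO (22.2%, against 27.4% of all tested genes), 0 with fatostatin against DMSO (14.0% of all genes), 2 with both compounds against EpA (22.2% against 16.0%) and 3 with both compounds against fatostatin (33.3% against 29.5%). Among the 13 deubiquitinases and kinases that restrain RIPK1, *Ikbke*, a kinase of the IKK family, rose by 0.64 with fatostatin against DMSO (SE 0.0402, limma adjusted p = 1.22e-06), from 5.57 ± 0.17 to 8.72 ± 0.16 FPKM (SD, n = 3), and by 0.60 with both compounds against EpA (SE 0.0402, limma adjusted p = 1.94e-06). Of the 12 apoptotic caspases and substrates, *Apaf1*, which encodes the scaffold of the apoptosome, rose by 0.47 with fatostatin against DMSO (SE 0.0354, limma adjusted p = 6.12e-06), from 9.91 ± 0.131 to 13.7 ± 0.382 FPKM. *Dffb*, the gene of the nuclease that cuts DNA in apoptosis, rose by 0.45 in the same comparison (SE 0.0631, limma adjusted p = 0.000575). Among the 13 genes of membrane repair by ESCRT-III, which removes membrane damaged by MLKL or gasdermin D, 4 passed with EpA against DMSO (30.8%, against 27.4% of all tested genes), 3 with fatostatin against DMSO (23.1% against 14.0%), 4 with both compounds against EpA (30.8% against 16.0%) and 3 with both compounds against fatostatin (23.1% against 29.5%), with genes passing higher and lower in each.

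Of the 10 other necroptosis genes, *Hsp90aa1*, whose chaperone stabilizes RIPK1, RIPK3 and MLKL, was 316, 310.0 and 307 FPKM with DMSO and 423, 416 and 421 with EpA, and rose by 0.43 (SE 0.0153, limma adjusted p = 9.03e-09). *Zbp1*, a nucleic acid sensor that engages RIPK3 directly and is named here after its values were seen, fell with both compounds against fatostatin by 0.36 (SE 0.047, limma adjusted p = 0.000188), from 7.1 ± 0.0679 to 5.53 ± 0.0412 FPKM (SD, n = 3). Of the 20 genes of the inflammasome list 13 were tested and 7 were below the level for testing, among them the sensor *Nlrp3*, listed at 0 in 7 of 12 libraries and at most 0.0495 FPKM, and *Il1b*, at most 0.173 FPKM, both named after their values were seen.

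Of the 13 tested inflammasome genes 3 passed higher and 3 lower with EpA against DMSO (46.2%, against 27.4% of all tested genes), and 2 higher and 0 lower with fatostatin against DMSO (15.4% against 14.0%). With both compounds 2 passed higher and 2 lower against EpA (30.8% against 16.0%), and 1 higher and 4 lower against fatostatin (38.5% against 29.5%). The sensor *Aim2*, named after its values were seen, read 22.5, 22.7 and 22.4 FPKM with DMSO and 25.8, 25.5 and 26.0 with fatostatin, a rise of 0.195 on the log2 scale (SE 0.021, limma adjusted p = 9.29e-05). *Pycard*, the adaptor between sensor and caspase-1, fell by 0.56 with both compounds against fatostatin (SE 0.0516, limma adjusted p = 1.15e-05), from 5.19, 5.5 and 5.59 to 3.59, 3.53 and 3.82 FPKM. *Casp4*, the mouse caspase-11 that cleaves gasdermin D independently of caspase-1, fell by 0.51 with both compounds against EpA (SE 0.0784, limma adjusted p = 0.00116), from 4.72, 4.39 and 5.25 to 3.73, 3.16 and 3.13 FPKM. *Il1a* rose by 1.01 with fatostatin against DMSO (SE 0.128, limma adjusted p = 0.000283) and *Nlrp1b*, a sensor, fell by 0.97 with EpA against DMSO (SE 0.215, limma adjusted p = 0.00604) at 14 to 89 reads in these libraries. Over 15 alternatives these values ran from 0.50 to 1.13 and from -1.51 to -0.24, nearest to 0 with a pseudocount of 1. *Nlrp6* (-0.71 with both compounds against EpA, limma adjusted p = 0.0308) and *Il18* (-0.95 with both compounds against fatostatin, limma adjusted p = 0.0422) passed on few reads. Their values ran from -1.11 to -0.17 and from -2.1 to -0.19 over 15 alternatives, and their calls were lost under 7 and 8 of these, *Nlrp6* without any 1 of the EpA libraries or replicate 1 or 3 of both compounds (limma adjusted p from 0.06 to 0.0985). *Il18* lost its call without replicate 1 of both compounds, at 0 reads (limma adjusted p = 0.129), without replicate 2 (0.0581), and without fatostatin replicate 1 (0.102) or 2 (0.12).

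The interferon response list was included because *Mlkl*, *Casp1*, *Casp4* and *Zbp1* are known interferon-inducible genes. Of its 14 tested genes, 0 passed higher and 7 lower with EpA against DMSO, where 14.3% of all tested genes passed higher and 13.1% lower, and again 0 and 7 with both compounds against fatostatin (16.2% and 13.3% of all genes). With fatostatin against DMSO 6 passed higher and 0 lower (7.69% and 6.31% of all genes), and with both compounds against EpA 6 higher and 1 lower (9.22% and 6.79%). *Gbp2*, a guanylate-binding protein gene, averaged 20.0 ± 1.03 FPKM with DMSO, 12.5 ± 0.35 with EpA and 24.7 ± 0.425 with fatostatin (SD, n = 3), and read 15.3, 15.3 and 14.5 with both, a log2 change of -0.67 with EpA (SE 0.0382, limma adjusted p = 3.99e-07). *Gbp3* fell by 0.68 with EpA (SE 0.0742, limma adjusted p = 4.86e-05) and rose by 0.46 with fatostatin (SE 0.0742, limma adjusted p = 0.00149). The list gene that fell with both compounds against EpA was *Usp18* (-0.295, limma adjusted p = 0.0416), named after its value was seen. Whether the interferon response has a part in the *Mlkl* values was not tested. *Mx1*, at 0.154 to 0.959 FPKM, rose by 1.42 with fatostatin against DMSO (SE 0.188, limma adjusted p = 0.000386), a value that ran from 0.60 to 1.68 over 15 alternatives. Its lower value with EpA (-0.64, and -0.96 to -0.17 over the alternatives, limma adjusted p = 0.0255) did not pass without DMSO replicate 2 (0.0686) or 3 (0.0871), without EpA replicate 1 (0.0891) or 3 (0.068), with a pseudocount of 1 (0.0887) or with only the groups compared in the fit (0.0573).

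**Figure D4:**
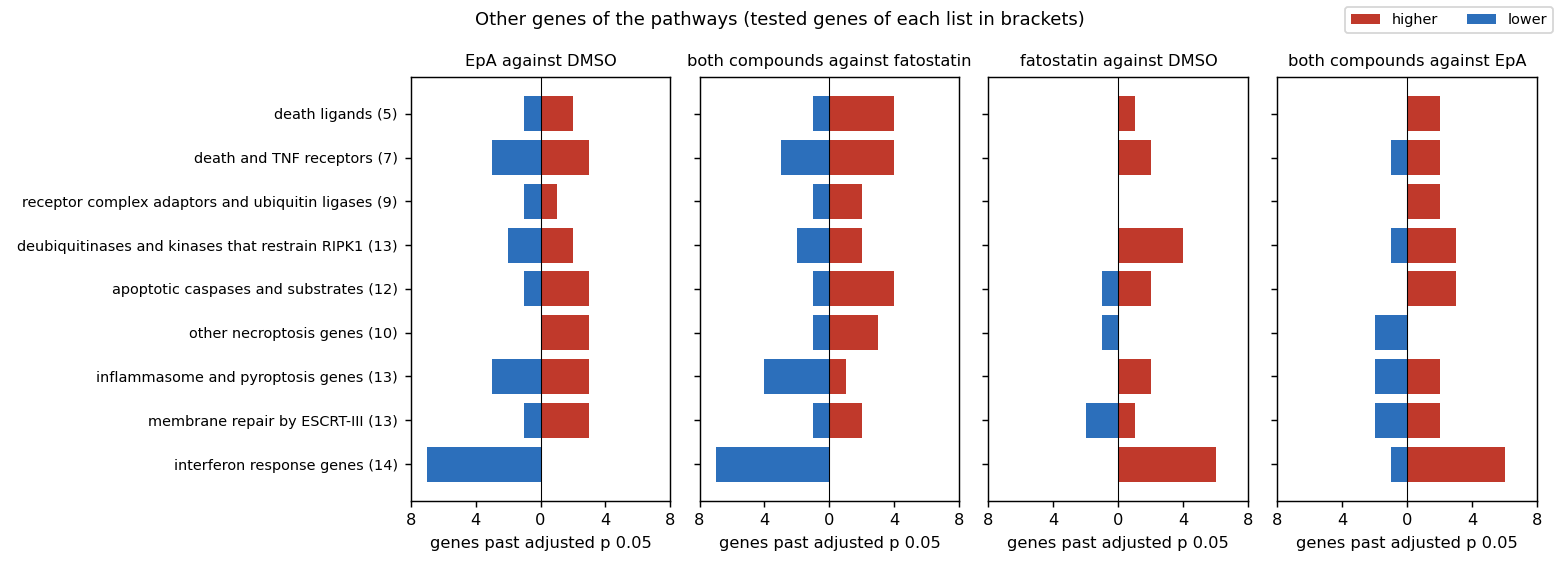
Number of genes of each list that passed (limma adjusted p below 0.05), higher to the right in red and lower to the left in blue, in the 4 comparisons between groups; the tested genes of each list stand in brackets. The interferon response genes extend to 7 lower in both EpA comparisons and to 6 higher in both fatostatin comparisons.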

How the data were processed

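RNA-seq was measured in Th9 cells of 12 libraries, 3 in each of 4 groups taken from the labels. The deposited FPKM values, used as they stand, were made by the authors with Trim Galore (trimming), HISAT2 (alignment, GRCm38) and featureCounts (gene counts). The annotation release and strand setting are not given in the sources used here. The deposited FPKM gave whole reads for 98.4% to 98.6% of values (tolerance 0.05) with exon lengths of a GENCODE annotation of GRCm38. Repeat lines of a gene were merged.

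Genes that averaged 0.1 FPKM or more were tested on log2(FPKM + 0.1), a scale that understates changes of low genes, by limma 3.58.1 under R 4.3.3, with all 4 group means and an intensity trend in 1 fit. The p-values are two-sided and Benjamini-Hochberg adjusted over 13733 genes, and a gene passed at an adjusted p below 0.05. A two-sided exact permutation test of 3 against 3 libraries cannot go below 0.1. The script was tested on simulated data.

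The genes and lists were chosen with earlier results of these data known. No test was made of any of the 9 genes with fatostatin against DMSO, nor of *Mlkl* in both compounds against EpA or in the difference between EpA effects. Of the lists, genes were named if they passed with 1.5-fold, or were among the 6 largest changes averaging 1 FPKM or more with groups that did not overlap, or if the text says so. Alternatives changed the pseudocount (1 or 0.01), the filter (none, or 1 FPKM), the groups fitted, the trend, the scaling (median ratio or TPM), the replicate block and the tool (voom on recovered reads), and left out single libraries. The summed values of 1 marker list are not reported here.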

Additional observations from a re-analysis of the deposited data

How the results depend on the processing

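No called result changed direction under the alternatives run. For the 9 genes, 576 of 592 alternative values over 34 tested results kept their side of the threshold, 6 calls were lost and 10 were gained. Of 166 values over 10 further results without a test, 1 moved by over 1 SD, as did 1 value of *Mlkl* with fatostatin against DMSO. The count for both compounds against fatostatin went from 2 to 1 with only the groups compared in the fit, where the cause was not tested, and ranged from 1 to 3 with each library left out. *Mlkl* lost its call there under that setting (limma adjusted p = 0.0876) and with voom (0.108). In the difference between the EpA effects the count went from 0 to 1 with voom. *Mlkl* with fatostatin against DMSO went from -1.33 to -1.21 with a pseudocount of 1, which by construction shrinks changes, and with both compounds against EpA from -1.36 to -1.25. Scaling by median ratios gave calls to *Casp8* in both compounds against EpA (limma adjusted p = 0.0498) and *Ripk1* in both compounds against fatostatin (0.0437, and 0.0347 with voom). Of 628 values of 40 results of named list genes, 604 kept their side, 23 lost it and 1 gained it. The calls of *Aim2* and *Usp18* were not among these results. Replicates with the same number did not deviate together (correlations of -0.09 to 0.09). This cannot show whether such libraries came from the same mouse or culture, which the labels do not say. With the replicate number as a block, 3 genes passed with EpA against DMSO, 2 with both compounds against fatostatin and 3 with both compounds against EpA, *Gsdmd* being the gene gained (limma adjusted p = 0.0148 and 0.0161). Where a group is left with 2 libraries, its spread is still shared with the other groups. *Casp1* (323 to 513 per library) and *Gsdmd* (367 to 557) had the fewest reads of the set, and *Mx1*, *Nlrp1b*, *Nlrp6* and *Il18* rest on fewer.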
